A study of Mus musculus with 12 samples.

Results

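The genes described here are 10 endothelial genes of the ovarian vasculature, Pecam1, Cdh5, Kdr, Tek, Tie1, Flt1, Eng, Emcn, Egfl7 and Plvap, out of 55416 annotated genes in the count files. They were chosen by name as markers and receptors of blood vessel lining, by their Ensembl identifiers, and an identifier was kept only where the files placed it on the chromosome named for the gene. All 10 met that rule. The rule itself uses no measured value, but the genes were chosen with earlier results of these data known. They were followed in whole fetal mouse ovary with and without Fmr1, the gene of the RNA-binding protein FMRP, and in RNA recovered with an antibody to FMRP.

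Endothelial cells line blood vessels and hold together through homophilic adhesion proteins at their borders. Their growth is driven by vascular endothelial growth factors acting on receptor tyrosine kinases, and the stability of the new vessels is set in large part by angiopoietins acting on the Tie receptors. In the fetal ovary a vascular network forms between the cords of germ cells and pregranulosa cells, and it carries the circulating fetal red cells through the organ.

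The Fmr1 KO group held 3 input libraries of total RNA from whole ovary at E16.5, taken from the homogenate before precipitation, and the WT group held 3 input libraries from littermates of the same age. Another 3 KO and 3 WT libraries came from RNA immunoprecipitation (RIP) with antibody ab17722 against FMRP. Each sample pooled 5 pairs of ovaries. The labels give the strain as B6.129P2-Fmr1tm1Cgr/J for the KO and for the WT samples alike, and they do not state whether the KO embryos were homozygous. Each library was such a pool, so every p-value here reflects variation among pools and not among single embryos.

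The input libraries held 18880238 to 25707718 reads counted in genes. Fmr1 itself averaged 101 ± 19.8 CPM (read counts scaled to a common library size with TMM factors) in KO input and 213 ± 8.47 CPM in WT input (SD, n = 3 each), and its log2 change was -1.08 (edgeR quasi-likelihood test, Benjamini-Hochberg adjusted p = 0.00775). Reads of the targeted gene were therefore still counted in the KO libraries, at 0.473 of the WT mean. Of 23698 genes tested, 10 passed an adjusted p of 0.05, all of them lower in KO, whereas DESeq2 called 37, of which 17 were higher in KO. Markers of the tissue were present in every library: 8 germ cell genes summed to 230.3 to 387.6 CPM and 5 pregranulosa genes to 692.9 to 731.2 CPM, while 4 testis genes summed to 11.9 to 12.9 CPM.

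All 10 endothelial genes were measured well above the low-count filter, with 15.5 to 125.4 CPM on average over the 6 input libraries. Scaled by exonic length, as RPKM (CPM per kilobase of exon), their levels differed widely. Cdh5 and Eng stood at the top with 21.0 and 20.7 RPKM as the mean of 6 libraries, above 90.1% and 89.9% of tested genes. Kdr followed at 13.9 RPKM and Pecam1 at 10.2 RPKM. Egfl7 (8.69 RPKM), Plvap (7.80 RPKM), Tie1 (6.39 RPKM), Tek (5.03 RPKM) and Emcn (4.76 RPKM) lay close together. Flt1 was lowest at 1.79 RPKM, above 40.7% of tested genes. Its place depends on the length used, which covers all annotated exons and was the longest of the 10 genes at 13504 bases. In CPM, Flt1 averaged 24.1 in KO and 24.2 in WT, above Plvap at 15.1 and 15.9. Only 3 of the 9 steps in this order separated neighbours whose libraries did not overlap: Eng over Kdr, Kdr over Pecam1, and Emcn over Flt1. Cdh5 and Eng could not be ordered, since Cdh5 was higher in 4 of 6 libraries, and neither could Egfl7 and Plvap or Tek and Emcn, with the same count. These are levels over all cells of the ovary, and in such bulk samples fewer cells of a type and less RNA per cell cannot be told apart.

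**Figure D1:**
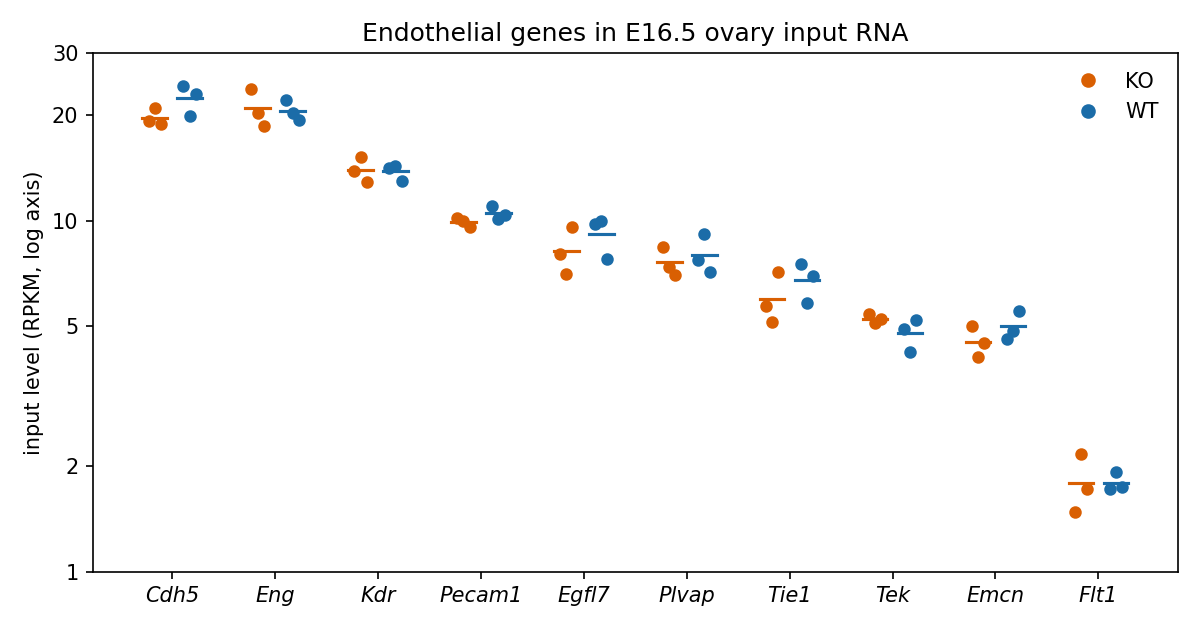
Level of each endothelial gene in each input library, as RPKM on a log axis, with KO libraries (orange) to the left of WT libraries (blue). The 3 KO and 3 WT points of each gene overlap, and the order of the genes runs down from Cdh5 and Eng at about 21.0 and 20.7 RPKM to Flt1 at 1.79 RPKM.

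No endothelial gene passed an adjusted p of 0.05 between KO and WT input, 0 of 10, where 0.0422% of all tested genes did. DESeq2 called 0 of the 10 as well. The KO and WT libraries overlapped for all 10, where 10.9% of all tested genes had groups that did not overlap. Cdh5 was the single endothelial gene at an unadjusted p under 0.05, lower in KO, and 3.00% of tested genes met that description. The count of endothelial genes at that level was 0 with the replicate block, without KO replicate 1 and without WT replicate 1, and 2 without KO replicate 3 and without WT replicate 2. In 7 of the 10 genes had a negative log2 change and 3 a positive one, with a median of -0.077, against -0.0020 and 50.5% negative over all tested genes.

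The adhesion proteins of the endothelial border were measured first. Cdh5 (ENSMUSG00000031871, chromosome 8, 104828257 to 104871143, plus strand) encodes VE-cadherin, the adherens junction cadherin of endothelium. It had 80.7, 87.7 and 78.9 CPM in KO libraries, against 101, 83.6 and 96.5 CPM in WT libraries. The highest KO library lay above the lowest WT library, so the groups overlapped, although the other two KO libraries were below all WT libraries. Its KO mean was 0.879 of the WT mean (log2 -0.19, SE 0.079, edgeR adjusted p = 0.776), with a 95% interval of 0.785 to 0.984 for the fold. Pecam1 (ENSMUSG00000020717, chromosome 11, 106545043 to 106641454, minus strand) encodes CD31, an immunoglobulin-family adhesion protein that leukocytes, platelets and fetal germ cells also carry. Pecam1 had 63.3, 62.2 and 59.8 CPM in KO libraries, against 68.4, 62.7 and 64.5 CPM in WT libraries. KO replicate 1 lay above the lowest WT library and the other two KO libraries lay below all WT libraries, and the fold of 0.948 had an interval of 0.851 to 1.06 (log2 -0.077, SE 0.075, adjusted p = 0.976). The summed germ cell markers were 306.7, 387.6 and 310.4 CPM in KO libraries and 230.3, 310.9 and 295.8 CPM in WT libraries, and their part in the Pecam1 value was not tested. Within each library the ratio of Pecam1 to Cdh5 on the RPKM scale was 0.507 ± 0.026 in KO and 0.471 ± 0.030 in WT, and the groups overlapped.

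The VEGF receptors and the Tie receptors are 4 receptor tyrosine kinases, and their promoters as given by RefSeq on GRCm38.p6, 250 bases before to 50 bases after the start, are printed in gene orientation so that the receptors can be compared by the number of ETS cores, a motif common in endothelial promoters. Capitals mark GGAA, the core bound by ETS factors, or TTCC, the same core on the other strand. The regions are chr4:118489800-118490099 (minus strand) for Tie1, chr4:94739039-94739338 (plus strand) for Tek, chr5:75978406-75978705 (minus strand) for Kdr and chr5:147725962-147726261 (minus strand) for Flt1.
Tie1: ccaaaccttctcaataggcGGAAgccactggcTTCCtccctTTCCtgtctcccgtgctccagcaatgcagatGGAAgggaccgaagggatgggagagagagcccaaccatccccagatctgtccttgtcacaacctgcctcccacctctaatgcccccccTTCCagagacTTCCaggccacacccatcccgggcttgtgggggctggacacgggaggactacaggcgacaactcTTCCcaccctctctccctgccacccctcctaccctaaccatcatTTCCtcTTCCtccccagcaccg
Tek: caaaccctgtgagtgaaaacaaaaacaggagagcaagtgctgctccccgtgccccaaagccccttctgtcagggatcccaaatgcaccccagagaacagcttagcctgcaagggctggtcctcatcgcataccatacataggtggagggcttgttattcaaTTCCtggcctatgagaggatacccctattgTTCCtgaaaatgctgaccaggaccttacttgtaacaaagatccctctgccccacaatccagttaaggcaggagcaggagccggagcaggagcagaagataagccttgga
Kdr: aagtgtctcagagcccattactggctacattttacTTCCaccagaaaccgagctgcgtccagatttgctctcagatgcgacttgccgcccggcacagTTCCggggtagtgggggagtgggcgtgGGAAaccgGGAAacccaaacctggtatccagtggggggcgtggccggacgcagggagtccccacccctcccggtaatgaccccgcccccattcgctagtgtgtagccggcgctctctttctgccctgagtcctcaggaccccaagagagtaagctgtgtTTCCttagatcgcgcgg
Flt1: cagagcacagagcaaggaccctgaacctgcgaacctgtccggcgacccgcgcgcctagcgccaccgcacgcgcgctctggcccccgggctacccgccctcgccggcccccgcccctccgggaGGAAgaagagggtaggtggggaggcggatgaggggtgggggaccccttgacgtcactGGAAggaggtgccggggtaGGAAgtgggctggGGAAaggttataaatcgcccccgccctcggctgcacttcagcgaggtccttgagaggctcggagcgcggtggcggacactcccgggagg

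Tie1 held 9 GGAA cores on both strands together, a number that 1.59% of all 32851 promoter windows in the table reached. Kdr held 5 (28.6% of windows had at least as many), Flt1 4 (46.3%) and Tek 2 (84.6%). The core is short, and 96.0% of all windows held at least 1. Windows were listed for 7 of the 10 genes, with 9 starts among them, of which 3 belong to Egfl7. GGAA was in 9 of 9 with a median of 4 matches and a maximum of 9 in Tie1, against a median of 3 over all windows. Flt1 alone of the 9 windows held TATAAA, 31 bases before its start, a motif found in 13.6% of all windows. The other motifs searched on both strands were CANNTG in 7 of 9 windows (72.3% of all), GATA in 6 (57.9%), ACAAT in 2 (31.0%) and GGGCGG in 3 (35.7%), and matches of different motifs may share bases. ETS-family genes of the endothelium were themselves counted: Ets1 averaged 94.5 ± 4.87 CPM in KO and 98.0 ± 3.10 CPM in WT, Fli1 26.0 ± 2.34 and 26.7 ± 2.20 CPM, and Erg 9.56 ± 0.99 and 8.61 ± 0.822 CPM (SD, n = 3 each). None of the 3 passed the test, and Fli1 and Erg were picked for naming after their values were seen.

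Kdr (ENSMUSG00000062960, chromosome 5, 76093487 to 76139118, minus strand) encodes VEGFR2, the main signalling receptor for VEGF-A. Its libraries held 125, 137 and 117 CPM in KO and 127, 129 and 117 CPM in WT, the highest counts of the 10 genes. Both groups covered nearly the same range, and the fold was 1.01 with an interval of 0.914 to 1.12 (log2 0.020, SE 0.072, adjusted p = 0.991). Flt1 (ENSMUSG00000029648, chromosome 5, 147498414 to 147662821, minus strand) encodes VEGFR1, which binds VEGF-A tightly and signals weakly, and whose shortened soluble forms act as a decoy. It had 20, 29.1 and 23.2 CPM in KO libraries and 23.2, 26.0 and 23.5 CPM in WT libraries. The KO libraries held both the lowest and the highest value, with a coefficient of variation of 19.2% in KO and 6.34% in WT, where counting alone gives 4.44% and 4.23%. The fold of 0.994 had an interval of 0.827 to 1.20 (log2 -0.0052, SE 0.13, adjusted p = 1.00), and counts per gene do not separate membrane-bound from soluble forms. Per kilobase, Kdr exceeded Flt1 by 9.33, 7.04 and 7.55 times in KO libraries and by 8.19, 7.44 and 7.46 times in WT libraries, and the groups overlapped. The size of this ratio depends on the lengths of all annotated exons, 9030 bases for Kdr and 13504 for Flt1, and is smaller in CPM.

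Tek (ENSMUSG00000006386, chromosome 4, 94627526 to 94763213, plus strand) encodes Tie2, the angiopoietin receptor. It had 25.6, 24.0 and 24.8 CPM in KO libraries, against 23.2, 20 and 24.6 CPM in WT libraries. KO replicates 1 and 3 were above all WT libraries and KO replicate 2 was below WT replicate 3, and the fold was 1.10 with an interval of 0.930 to 1.30 (log2 0.13, SE 0.12, adjusted p = 0.966). Tie1 (ENSMUSG00000033191, chromosome 4, 118328388 to 118347258, minus strand) encodes a partner receptor that binds no angiopoietin tightly on its own and modulates Tie2. It had 28.0, 25.4 and 35.1 CPM in KO libraries, against 37.1, 28.6 and 34.2 CPM in WT libraries. KO replicate 3 was above 2 of the 3 WT libraries while the other two KO libraries were below all of them, and the fold was 0.885 with an interval of 0.739 to 1.06 (log2 -0.18, SE 0.12, adjusted p = 0.957). The ratio of Tek to Tie1 on the RPKM scale was 0.952, 0.987 and 0.738 in KO libraries and 0.654, 0.729 and 0.749 in WT libraries. KO replicates 1 and 2 were above all WT libraries and KO replicate 3 was within their range.

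Eng (ENSMUSG00000026814, chromosome 2, 32536607 to 32572681, plus strand) encodes endoglin, a co-receptor for TGF-beta and BMP ligands on proliferating endothelium. It had 95.8, 82.1 and 75.5 CPM in KO libraries, against 89.6, 81.8 and 78.2 CPM in WT libraries. KO held the highest and the lowest value, and the fold of 1.01 had an interval of 0.898 to 1.14 (log2 0.020, SE 0.084, adjusted p = 0.992). Emcn (ENSMUSG00000054690, chromosome 3, 137046828 to 137137946, plus strand) encodes endomucin, a sialomucin of venous and capillary endothelium. It had 27.0, 22.2 and 24.2 CPM in KO libraries, against 24.9, 26.3 and 29.9 CPM in WT libraries. KO replicate 1 was inside the WT range and the other two below it, for a fold of 0.904 with an interval of 0.765 to 1.07 (log2 -0.15, SE 0.12, adjusted p = 0.962). Plvap (ENSMUSG00000034845, chromosome 8, 71950409 to 71964396, minus strand) forms the diaphragms of fenestrae and caveolae. It was the member with fewest counts, at 16.7, 14.6 and 13.9 CPM in KO libraries and 15.3, 18.2 and 14.2 CPM in WT libraries. The groups overlapped, and the fold was 0.949 with an interval of 0.778 to 1.16 (log2 -0.076, SE 0.14, adjusted p = 0.982).

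Egfl7 (ENSMUSG00000026921, chromosome 2, 26470026 to 26483132, plus strand) encodes a secreted factor of the endothelial matrix, and the gene is known to host the microRNA miR-126, which tunes VEGF signalling in vessels. RefSeq gives a mature strand of Mir126a at chr2:26591402-26591423 (plus strand, GRCm38.p6). It is printed here, with the seed, bases 2 to 8, in capitals, since it is a regulatory product of this locus. Mature strands of Mir126b are listed at the same place on the opposite strand and are not printed.
mmu-miR-126a-3p: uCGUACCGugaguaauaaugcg
The host gene had 28.7, 25.3 and 34.3 CPM in KO libraries, against 35.0, 35.7 and 27.9 CPM in WT libraries. KO replicate 3 was close to the upper WT libraries and WT replicate 3 was close to the lower KO libraries, so the groups overlapped. The fold was 0.896 with an interval of 0.749 to 1.07 (log2 -0.16, SE 0.12, adjusted p = 0.959). A 73-base annotated feature on the same strand inside the exonic bases of Egfl7, as long as the RefSeq Mir126a hairpin, was listed at 0 counts in all 6 libraries. That feature shares all its bases with Egfl7, reads in 2 genes were not assigned, and the labels name no preparation of small RNA, so the value is no measure of miR-126. The longest overlap of Egfl7 was 264 exonic bases, 7.37% of its length, with ENSMUSG00000092356 on the same strand, which was also listed at 0 counts in all 6 libraries. On the opposite strand Egfl7 shares 64 bases (1.79%) with one gene and 58 bases (1.62%) with another, and Eng shares 61 bases (1.51%) with one gene. The counting used no strand, so the value of Egfl7 can lack reads from these shared bases.

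**Figure D2:**
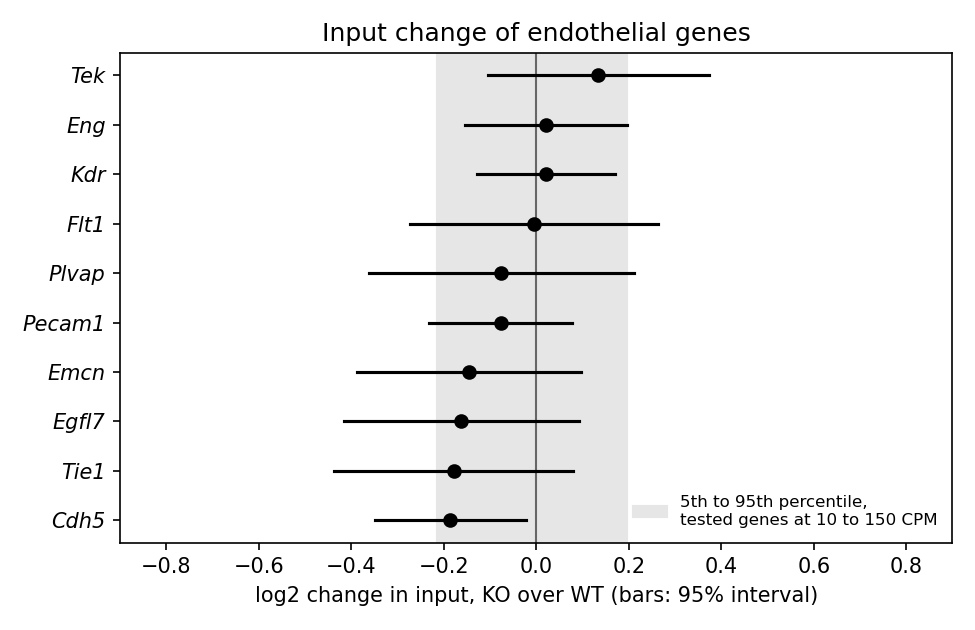
Log2 change of each endothelial gene, KO over WT input, with its 95% interval from the edgeR fit. The grey band spans -0.215 to 0.197, the 5th to 95th percentile of tested genes at 10 to 150 CPM, and all 10 point estimates lie inside it, from -0.19 for Cdh5 to 0.13 for Tek.

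Genes of a like level set the scale for these changes. Among 10303 tested genes at 10 to 150 CPM, the 5th and 95th percentiles of the log2 change were -0.215 and 0.197, and 3 genes passed the adjusted threshold. The 10 endothelial genes lay between -0.19 and 0.13. Their 95% intervals spanned folds of 0.739 to 1.30 in all, so KO levels below 0.739 or above 1.30 of the WT level lay outside every interval. Replicate spread exceeded counting error for most: Tie1 varied by 17% in KO and 12.9% in WT, Egfl7 by 15.5% and 13.1%, where counting gives about 4.07% in KO for each. Pecam1 was the steadiest, at 2.90% in KO and 4.47% in WT.

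Summed over the 10 genes, endothelial reads came to 510.7, 509.8 and 486.5 CPM in KO libraries and 545.0, 512.2 and 511.0 CPM in WT libraries. The sums did not overlap, by a margin of under 1 CPM, and the KO mean was 96.1% of the WT mean. When each library was scaled by its total alone, the sums were 508.7, 517.3 and 486.2 CPM in KO and 537.3, 514.2 and 502.3 CPM in WT, and the groups overlapped. KO replicate 3 was the lowest library for 5 of the 10 genes and WT replicate 1 was the highest for 3.

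Markers of other cell types were set beside this sum. The 5 erythroid genes summed to 6862, 5331 and 5174 CPM in KO libraries and 10090, 7171 and 8669 CPM in WT libraries, with all KO libraries below all WT libraries and a KO mean of 67.0% of the WT mean. All 5 had negative log2 changes (median -0.59), and 0 passed the adjusted threshold. Lymphatic endothelial genes, 4 in number, summed to 80.6, 73.1 and 79.1 CPM in KO and 71.9, 68.6 and 72.4 CPM in WT, at 109% of the WT mean. Pdpn held most of this sum, with means of 45.2 CPM in KO and 40.3 CPM in WT and a KO to WT ratio of 1.12. The ratios of Prox1, Lyve1 and Ccl21a were 1.05, 1.07 and 1.04. Pericyte genes stood at 101%, pregranulosa genes at 99.3% and macrophage or leukocyte genes at 98.1% of the WT mean. Stromal genes stood at 95.9%, with Col1a1 and Col1a2 holding most of the sum, and germ cell genes at 120%. The KO and WT sums overlapped for the pericyte, pregranulosa, macrophage or leukocyte, stromal and germ cell lists. The lymphatic sums did not overlap, as every KO library lay above every WT library. Of the 7 germ cell genes tested, 6 had positive log2 changes, and Figla had a negative one (log2 -0.87, edgeR adjusted p = 0.610). The part of any of these cell types in the endothelial values was not tested.

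**Figure D3:**
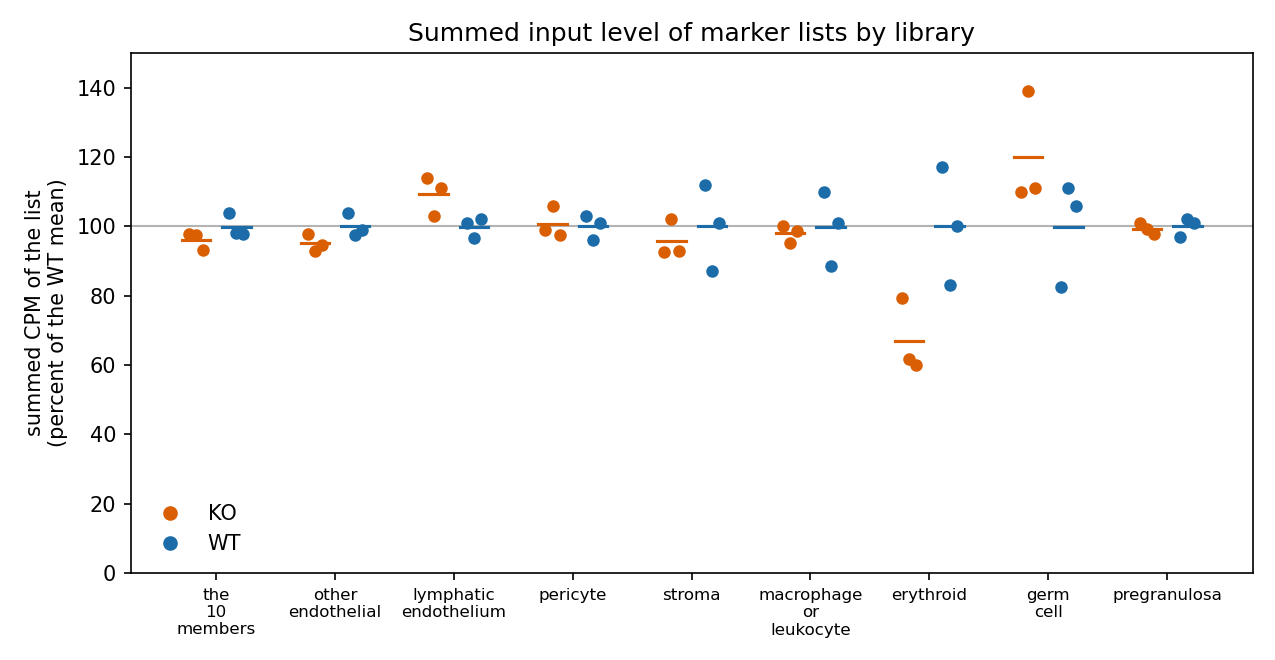
Summed CPM of each gene list in each input library, as a percent of the WT mean of that list, with KO libraries (orange) and WT libraries (blue). The 10 endothelial genes average 96.1% in KO, close to the WT libraries, while the erythroid genes average 67.0% and the lymphatic genes 109%. Pdpn held most of the lymphatic sum.

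The ligands and co-receptors of the same pathways were counted next, 17 genes of 18 listed. None passed the adjusted threshold (lowest edgeR adjusted p = 0.698), 7 had positive and 10 negative log2 changes, and the median was -0.017. Vegfa, the ligand of Kdr and Flt1, had 67.5, 61.3 and 59.0 CPM in KO libraries and 64.7, 80.9 and 74.1 CPM in WT libraries, with overlapping groups (log2 -0.22, SE 0.086, adjusted p = 0.698). Vegfd, a ligand that in mouse acts on Flt4, averaged 19 ± 2.53 CPM in KO and 15.4 ± 1.32 CPM in WT libraries (log2 0.31, SE 0.13, adjusted p = 0.799). Flt4, the receptor of lymphatic endothelium, averaged 22.4 ± 2.01 CPM in KO and 18.8 ± 1.91 CPM in WT libraries (log2 0.25, SE 0.12, adjusted p = 0.854). By RPKM the highest of these genes were Vegfb (28.5), Vegfa (15.8) and the co-receptor Nrp1 (12.2), and Nrp1 averaged 119 CPM in both groups.

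A further 22 endothelial genes of 24 listed were also counted, and 0 passed (lowest edgeR adjusted p = 0.607), while 15 had negative and 7 positive log2 changes, and the median was -0.063. At an unadjusted p under 0.05 there were 3, all lower in KO, where 3.00% of all tested genes were lower at that level. S1pr1, the sphingosine 1-phosphate receptor that steadies vessel junctions, had 12.8, 14.8 and 14.9 CPM in KO libraries and 20.3, 17.3 and 18.4 CPM in WT libraries, with no overlap (log2 -0.39, SE 0.13, adjusted p = 0.607). Adgrl4, an adhesion receptor of angiogenic endothelium, averaged 9.10 ± 0.476 CPM in KO and 11.5 ± 1.09 CPM in WT, also without overlap (log2 -0.34, adjusted p = 0.810). Of all tested genes, 10.9% had groups that did not overlap. Tal1, a transcription factor of both blood and endothelial lineages, averaged 19.7 ± 4.05 CPM in KO and 26.6 ± 6.65 CPM in WT with overlapping groups (log2 -0.43, adjusted p = 0.810). It is shared with the erythroid lineage, whose summed markers averaged 5789 CPM in KO and 8642 CPM in WT, and the part of red cells in its value was not tested. The highest of this list by RPKM were Mcam (15.3), Ets1 (11.4) and the sialomucin Cd34 (11.3).

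The RIP readout lists fold enrichments for 14447 rows that belong to 7525 genes. Of the 10 endothelial genes, 3 had rows: Cdh5 with 1, Kdr with 2 and Eng with 2. These are the 3 with the most input counts. The table covered abundant genes most: rows existed for 34.1% of genes at 10 to 25 CPM, 53.9% at 25 to 50 CPM, 66.2% at 50 to 75 CPM and 77.3% at 75 to 150 CPM. The endothelial genes had rows for 0 of 3, 0 of 3, 0 of 1 and 3 of 3 in these bands. The absence of a row for Tek, Tie1, Flt1, Emcn, Egfl7, Plvap and Pecam1 is no measure of FMRP binding.

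**Figure D4:**
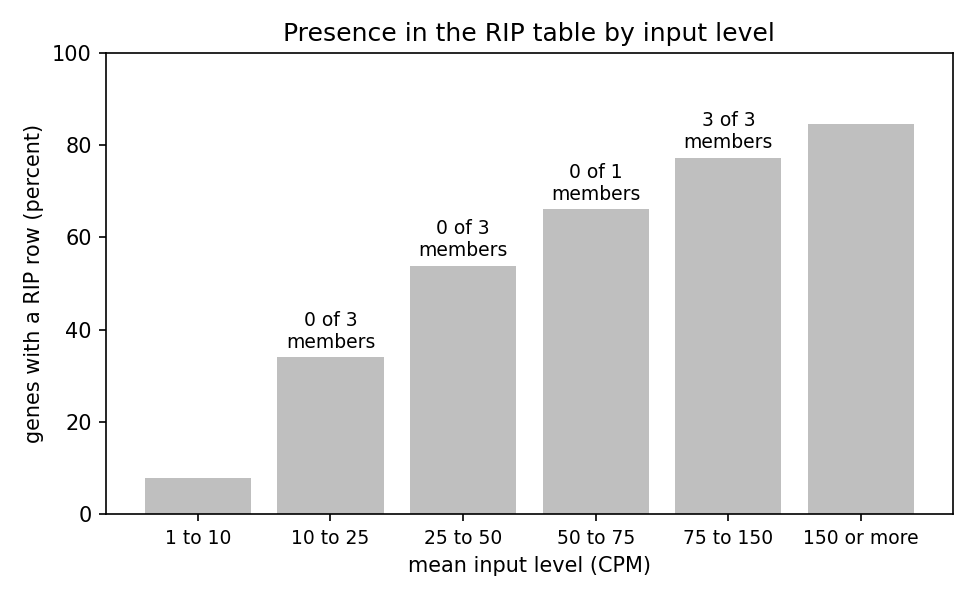
Percent of genes with at least 1 row in the RIP table by mean input CPM, for all genes of the count files at 1 CPM or more (bars). The number of endothelial genes that have a row is written above each band that holds any. The share climbs from 7.78% at 1 to 10 CPM and 34.1% at 10 to 25 CPM to 77.3% at 75 to 150 CPM and 84.5% above. The 3 endothelial genes with rows, Cdh5, Kdr and Eng, all lie in the 75 to 150 CPM band.

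The RIP comparison sets ratios obtained with the FMRP antibody in KO ovary beside those in WT ovary. How much FMRP remained in the KO samples was not measured in the files used here. For the endothelial rows 0 of 5 passed an adjusted p of 0.05, where 0% of 14365 tested rows did (limma, smallest adjusted p of all rows 0.374), and 0 of 5 had an unadjusted p under 0.05, where 413 rows were higher and 859 lower in KO. KO and WT libraries overlapped in all 5 rows, where 15.2% of all rows did not overlap. The KO mean was the higher one in 4 of the 5 rows.

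Cdh5 had ratios of 1.95, 2.03 and 1.54 in KO RIP and 1.49, 1.63 and 2.28 in WT RIP. WT replicate 3 was the highest library, and the other two WT libraries were below KO replicates 1 and 2 (log2 difference 0.025, SE 0.14, limma adjusted p = 0.977). The first row of Kdr had 1.69, 1.78 and 2.24 in KO RIP and 1.86, 1.52 and 1.09 in WT RIP, with overlap at a single WT library (log2 0.23, SE 0.13, adjusted p = 0.677). Its other row had 1.44, 1.24 and 1.69 in KO RIP and 1.20, 1.34 and 1.28 in WT RIP, where KO replicate 2 lay inside the WT values (log2 0.11, SE 0.091, adjusted p = 0.780). For Eng, the first row had 1.28, 1.79 and 1.80 in KO RIP and 1.51, 1.18 and 1.56 in WT RIP, and the groups overlapped (log2 0.11, SE 0.11, adjusted p = 0.801). The other row of Eng had 1.14, 1.40 and 1.14 in KO RIP and 1.11, 1.46 and 1.20 in WT RIP, nearly the same values in the groups (log2 -0.018, SE 0.086, adjusted p = 0.972). All values of the 5 rows lay between 1.09 and 2.28. Row means over the whole table had a median of 1.77 and a 95th percentile of 5.65. The mean of Cdh5 was above 54.4% of all rows and that of the lower Eng row above 7.25%.

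**Figure D5:**
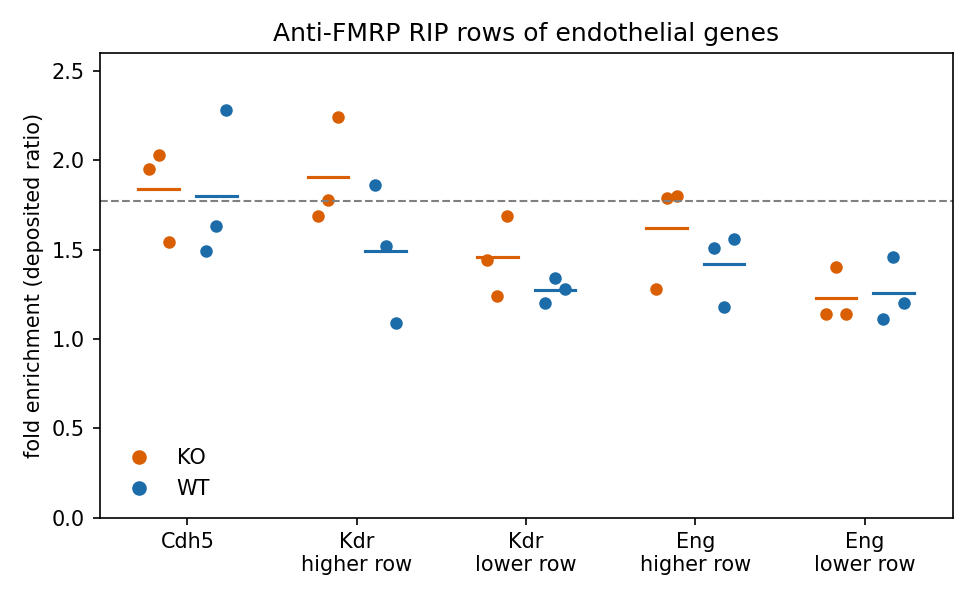
RIP fold enrichment of the 5 rows of Cdh5, Kdr and Eng in each library, KO (orange) left of WT (blue), with the dashed line at 1.77, the median of row means over all rows. The values run between 1.09 and 2.28 and the groups overlap in every row.

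Other vascular genes in the RIP table also had mostly positive differences, without any call: 15 of 18 rows of further endothelial genes and 4 of 5 rows of ligands and co-receptors had a positive log2 difference, against 50.5% of all tested rows. The medians were 0.13 and 0.11, beside 0.11 for the 5 endothelial rows and 0.0021 for all rows. Positive differences were also found in 27 of 34 rows of stromal genes, 13 of 19 of pericyte genes, 9 of 12 of pregranulosa genes, 11 of 19 of erythroid genes and 0 of 3 of germ cell genes. Lymphatic, testis and macrophage or leukocyte genes had 1 row each, positive for lymphatic and testis genes and negative for macrophage or leukocyte genes. Rows of 1 gene are not independent, and none of these rows passed an adjusted p of 0.05.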

How the data were processed

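Raw read counts per gene, deposited for 6 input libraries, were made by the authors with featureCounts 1.6.3 over exons of the Ensembl 104 annotation, per the file headers. The submitters' processing notes also list BWA 0.7.12, MACS2 2.1.0 and DESeq2 1.26.0 and the build GRCm38, without saying what each was used for. Coordinates of genes are those of the files' annotation, which belongs to a later build, and were not converted. The RIP table holds a ratio (fold enrichment) per row and library as deposited, and what it is relative to is not given in the sources used here, nor are the rows' positions. The recorded command sets no option for strand or for reads that overlap 2 genes, and the tool then leaves such reads out, so genes with shared exonic bases can lose reads.

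Counts were tested with edgeR 4.0.16 in R 4.3.3 (TMM scaling, filterByExpr, robust quasi-likelihood, 3 KO against 3 WT, all 23698 genes that passed the filter, Benjamini-Hochberg adjustment, threshold 0.05). A 95% interval is the log2 change plus or minus a t quantile times its standard error, not adjusted for multiple tests. RPKM is TMM CPM per kilobase of exon. RIP ratios were tested with limma 3.58.1 on log2(ratio + 1), after subtracting each library's median, in the 14365 rows whose mean ratio reached 1, so differences are on that scale and understate low ratios. The pipelines were run on simulated data with folds larger than those estimated for the endothelial genes, so that run does not show whether changes of their size would be detected.

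The members and lists were chosen with earlier results of these data known. The genes named from the further lists were the 3 with the smallest input p and the 3 with the highest RPKM of each list, and exceptions are stated. No table given here pairs the Ensembl identifiers with names: the 10 members were identified by the rule above, and 85 of 93 genes of 11 further lists were used, those whose chromosome and genomic span (within 10%) matched the RefSeq gene of the symbol. The span was no condition for the members: 8 of the 10 were within it, and Pecam1 and Egfl7 were not, with spans 1.58 and 1.13 times those of RefSeq. For the lists, strand also had to match where a RefSeq promoter entry gave it, and it could not be compared for the rest. Alternatives were DESeq2 1.42.0, its size factors in edgeR, no filter on low values, other RIP pseudocounts (0.1 and 10), no centring, the replicate number as a block, and leaving out each library. Promoter and microRNA sequences are from RefSeq on GRCm38.p6.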

Additional observations from a re-analysis of the deposited data

How the results depend on the processing

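No endothelial gene was called in any of the 10 alternatives for input or the 11 for RIP. The lowest adjusted p was 0.509 for input (edgeR, without WT replicate 2) and 0.496 for RIP (limma, without WT replicate 1). The 10 input genes called among all genes became 113 with no filter on low counts, 20 with the replicate block and 37 with DESeq2, and 5 to 37 when 1 library was left out: 37 without KO replicate 1, 5 without KO replicate 2 and 28 without WT replicate 2. All 10 were lower in KO, but calls higher in KO numbered 48 of 113 with no filter, 4 of 20 with the block, 17 of 37 with DESeq2, 19 of 37 without KO replicate 1 and 2 of 10 without WT replicate 1. RIP calls went to 1 row with no filter on low values. Replicate numbers gave no pairing: same-numbered KO and WT libraries had deviations that correlated at -0.0712, -0.0344 and -0.0445 in input and -0.601, -0.336 and -0.218 in RIP, and under the replicate block 0 endothelial genes were called. Signs turned only when 1 library was left out: log2 values ranged over -0.044 to 0.077 for Kdr, -0.17 to 0.11 for Flt1, -0.079 to 0.098 for Eng, -0.15 to 0.030 for Plvap, -0.072 to 0.047 for the Eng RIP row with the lower mean and -0.062 to 0.15 for the Cdh5 RIP row. The cause was not tested. Cdh5, Pecam1, Emcn, Egfl7 and Tie1 stayed negative and Tek positive in the 10 input alternatives. Pools number 3 a group, which limits the precision of every value here.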
